A study of Mus musculus with 6 samples.

Results

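The genes of acetylcholine synthesis, transport and breakdown, together with the muscarinic acetylcholine receptors, were examined in RNA from the substantia nigra (SN) of MitoParks and littermate controls. The 10 genes were listed by symbol, with earlier results of these data known, and all 10 were among the 24054 genes of the deposited table. They are Chat, Slc18a3 and Slc5a7 for synthesis and transport, Ache and Bche for breakdown, and Chrm1, Chrm2, Chrm3, Chrm4 and Chrm5 for the receptors. MitoParks carried Cre at 1 copy of the dopamine transporter gene and floxed Tfam on both copies (Dat+/Cre, Tfam LoxP/LoxP), and the controls carried 1 floxed copy of Tfam and no Cre (Dat+/+, Tfam+/LoxP), both on C57BL/6. Per the study's methods, control mice came from MitoPark litters or from litters of the parental strain. Tfam, which encodes mitochondrial transcription factor A, is by this design deleted in cells that have used the dopamine transporter promoter. The 3 mice of each group were 16 to 17 weeks old and untreated, and no source used here ties a sex to a single mouse.

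Acetylcholine is made from choline and acetyl-CoA in cholinergic neurons, loaded into vesicles, released, and split by cholinesterases, after which the choline is taken up again. Muscarinic receptors are G protein-coupled receptors: those encoded by Chrm1, Chrm3 and Chrm5 act through Gq and phospholipase C, and those encoded by Chrm2 and Chrm4 through Gi. The cell bodies of cholinergic neurons that innervate the SN lie mainly in the pedunculopontine nucleus, outside the SN, while dopaminergic neurons of the SN express the receptor encoded by Chrm5 and produce acetylcholinesterase. Transcripts of the neurons that send acetylcholine to the SN are thus read in a different place from those of the cells that respond to it.

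No gene of the group differed between MitoParks and littermate controls at the cutoffs used here, a p below 0.05 taken without adjustment together with a change of more than 1.5-fold. Of the 10 genes, 9 passed the filter on low counts and were tested by edgeR's quasi-likelihood test, and 0 were called, against 0.577% of all 14568 genes tested. The number was 0 as well at an unadjusted p below 0.05 alone, which 1.11% of all genes reached, and 0 by DESeq2 and by limma-voom at both cutoffs. No gene of the table had an adjusted p below 0.05 (0%), and the adjusted p of each of the 9 genes was 0.999. The ranges of the groups overlapped for all 10 genes. Among all genes tested, 2.28% were lower and 2.43% higher in every MitoPark than in every control. In a group of 10 genes, counts of 0 are near all of these shares. All 9 tested genes had a log2 fold change below 0, where 51.4% of all genes did, and 9 of 9 stayed below 0 with DESeq2 size factors or total counts in place of TMM. With 1 mouse left out, between 6 and 9 of the 8 to 10 members then tested were below 0. The filter bears on this count, since Chat passed it through the control group alone, and without the filter Slc18a3 was above 0 and 9 of 10 were below.

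**Figure D1:**
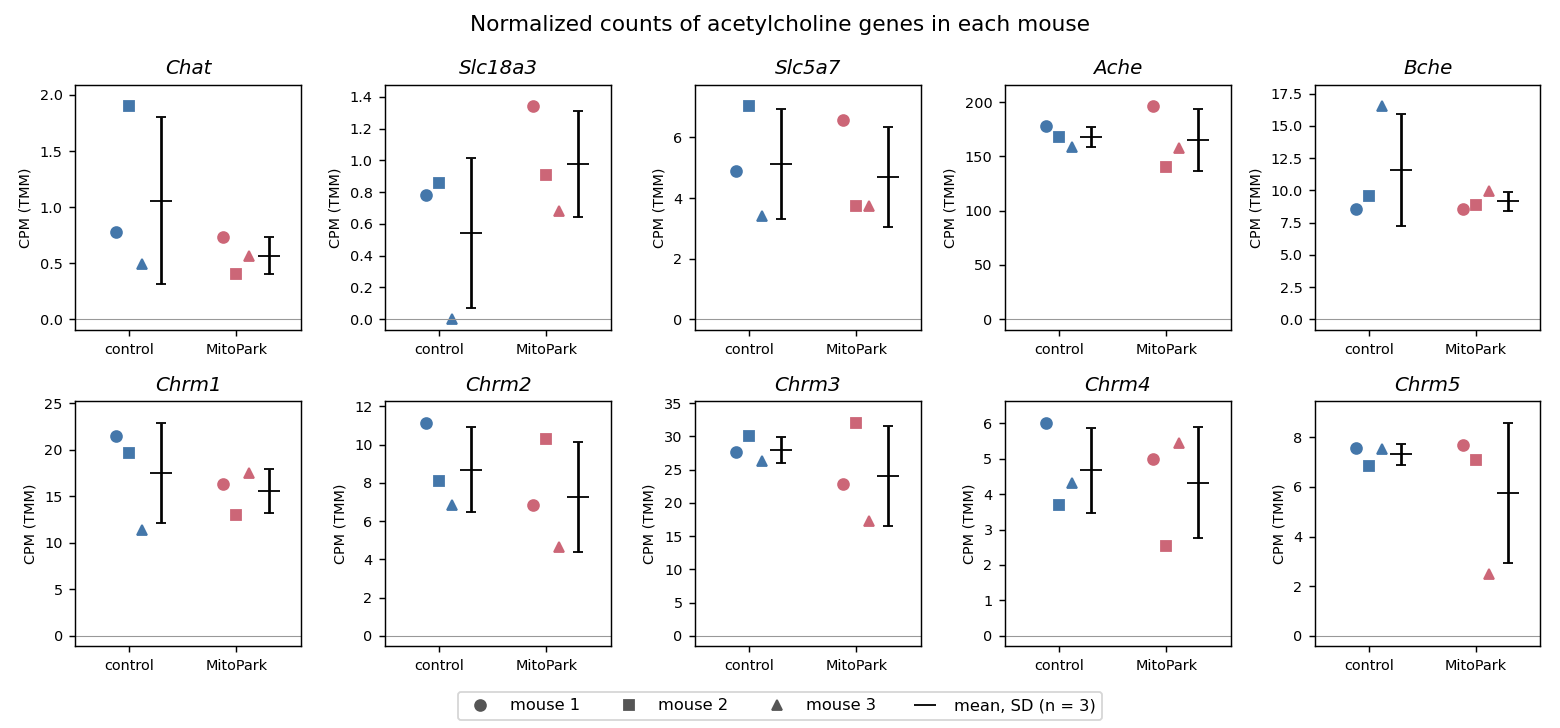
Normalized counts (CPM after TMM, y axis, from 0) of the 10 genes in each of 3 littermate controls (blue) and 3 MitoParks (red). Marker shapes give the mouse number, and black bars the mean and SD of 3 mice. The groups overlapped in every panel, and Slc18a3 was at 0 in littermate control 3.

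The libraries held between 8140777 and 10528602 expected counts, and 3 counts corresponded to between 0.285 and 0.366 CPM, the count scaled to a fixed library size after TMM normalization. For Tfam, littermate controls 1, 2 and 3 gave 40.3, 44.4 and 45.5 CPM and MitoParks 1, 2 and 3 gave 32.7, 33.1 and 33.2 CPM, where the fitted log2 change was -0.40 (standard error 0.11, unadjusted p = 0.00565, edgeR) and stayed under the 1.5-fold cutoff. Littermate control 3 stood apart in dopaminergic neuron markers. Its summed level of 9 such markers was 1433 CPM, against 298 to 540.2 CPM in the other 5 mice. Its 6 oligodendrocyte markers had the highest sum too, at 17757 CPM, against 6697 to 15111 CPM. For that sum, littermate control 1 deviated as much from the mean of 6 mice (-0.73 on the log2 scale, against 0.68 for littermate control 3). Of the 9 dopaminergic markers, 2 passed the cutoffs, both lower in MitoParks (Slc6a3 and Foxa1), where 0.577% of all genes tested passed. The groups overlapped for Foxa1 (unadjusted p = 0.0488, edgeR) but not for Slc6a3, and littermate control 3 was highest for both. Slc6a3 is the dopamine transporter gene that carries Cre at 1 copy in MitoParks, and the part of that allele in its level was not tested. Xist, transcribed from the inactive X chromosome, was at 1.56 CPM in littermate control 1 and 2.12 CPM in MitoPark 2, and at 830 to 1189 CPM in the other 4 mice, so that each group held 1 mouse with a low value. In tissue RNA, fewer cells of a type and less RNA per cell cannot be told apart.

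The promoters of the genes for synthesis and transport are shown because these transcripts define a cholinergic neuron and because Slc18a3 lies inside the Chat gene, which places 2 of them in 1 locus. RefSeq windows (GRCm38.p6) were found for 9 of the 10 genes. The build behind the deposited counts is not given, so the positions belong to RefSeq alone. Each line holds the 250 bases before the start, 5′ to 3′ on the minus strand, and capitals mark TATAAA. Chat is at chr14:32465910-32466159, Slc18a3 at chr14:32464851-32465100 and Slc5a7 at chr17:54299035-54299284.
Chat: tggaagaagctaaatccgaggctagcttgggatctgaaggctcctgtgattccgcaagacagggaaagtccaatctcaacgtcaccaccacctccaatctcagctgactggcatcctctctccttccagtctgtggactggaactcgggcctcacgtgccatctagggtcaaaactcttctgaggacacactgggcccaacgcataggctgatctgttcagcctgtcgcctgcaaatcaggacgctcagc
Slc18a3: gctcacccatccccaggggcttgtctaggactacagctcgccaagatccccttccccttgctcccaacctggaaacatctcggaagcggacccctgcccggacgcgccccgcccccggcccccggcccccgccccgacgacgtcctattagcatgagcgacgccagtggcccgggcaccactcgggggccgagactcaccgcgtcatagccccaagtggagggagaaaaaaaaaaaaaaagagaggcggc
Slc5a7: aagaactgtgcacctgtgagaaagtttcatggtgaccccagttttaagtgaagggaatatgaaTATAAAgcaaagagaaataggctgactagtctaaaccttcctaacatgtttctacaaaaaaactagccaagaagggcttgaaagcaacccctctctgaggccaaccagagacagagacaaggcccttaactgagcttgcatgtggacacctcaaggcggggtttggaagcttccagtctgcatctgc

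The starts of Chat and Slc18a3 were 1059 bases apart on the same strand. The Slc18a3 window was the richest of the 3 in G and C, at 66%, with 21 CG pairs, against 54.8% and 8 for Chat and 45.6% and 1 for Slc5a7, where the medians over 32851 windows were 52.4% and 6. Both strands were searched for TATAAA and for TAATTA, a core bound by many homeodomain proteins, and these motifs do not overlap. TATAAA was in 1 of the 9 windows, that of Slc5a7, 187 bases before the start, and in 12.4% of all windows. TAATTA was in 1 window, that of Chrm5, and in 4.84% of all. Nothing was measured at these promoters, and a match of letters is a description.

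Chat encodes choline acetyltransferase, which makes acetylcholine. Littermate controls 1, 2 and 3 gave 7, 20 and 5 counts of Chat, and MitoParks 1, 2 and 3 gave 6, 4 and 5. Littermate control 2 was thus the only mouse well above the rest, with a 95% Poisson interval of 12.2 to 30.9 counts, while the intervals of the other 5 mice lay between 1.09 and 14.4 counts and cover counting error only. In CPM the levels were 1.06 ± 0.745 in controls and 0.568 ± 0.163 in MitoParks (SD, n = 3 each). The fitted log2 fold change of Chat was -0.91 (standard error 0.60, unadjusted p = 0.163, edgeR), and its 95% interval ran from -2.27 to 0.44. Chat passed the filter of a mean above 1 CPM only through the control group and, without littermate control 2, was not tested. The 95% interval of Chat includes levels more than 1.5-fold lower, and what could be detected at these counts was not tested.

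Slc18a3, the vesicular acetylcholine transporter, was the 1 gene under the filter. The controls gave 7, 9 and 0 counts and the MitoParks 11, 9 and 6, or 0.545 ± 0.473 and 0.977 ± 0.335 CPM (SD, n = 3 each). The mean was higher in MitoParks, opposite to Chat, but littermate control 3 had no count, for which the limit was set at 3 counts or 0.293 CPM, while the other controls were at 0.780 and 0.855 CPM, both above MitoPark 3 at 0.680 CPM. Fitted without the filter, Slc18a3 had a log2 fold change of 0.83 (standard error 0.73, unadjusted p = 0.275, edgeR). Both transcripts that define a cholinergic neuron were therefore at 20 counts or fewer in every library.

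Slc5a7 encodes the high-affinity choline transporter, which returns choline to the nerve terminal and limits the rate of synthesis. It was the best counted of the 3 genes, with controls at 4.90, 7.03 and 3.42 CPM against MitoParks at 6.58, 3.74 and 3.74 CPM. The highest and the lowest mouse were both controls, and MitoPark 1 was close to the highest. Its log2 fold change was -0.14 (standard error 0.33, unadjusted p = 0.695, edgeR), with a 95% interval from -0.89 to 0.62. It was 0.17 without littermate control 2 and 0.015 without MitoPark 2. Littermate control 3 had the lowest Slc5a7 and Slc18a3 and the highest dopaminergic and oligodendrocyte markers, and the part of that mouse's tissue makeup in these values was not tested.

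Ache encodes acetylcholinesterase, the enzyme that splits acetylcholine at synapses. It had the most reads of the group, with 1391 to 1766 counts per mouse. Its level was 178, 168 and 159 CPM among controls, against 196, 141 and 158 CPM among MitoParks. MitoParks thus held both the highest and the lowest mouse around nearly equal means of 168 ± 9.44 and 165 ± 28.4 CPM (SD, n = 3 each). For Ache the log2 fold change was -0.03 (standard error 0.13, unadjusted p = 0.844, edgeR). Its 95% interval, from 0.798- to 1.21-fold, was the narrowest of the group and lay within the 1.5-fold cutoff in both directions. The sign turned without littermate control 1 (0.019), MitoPark 2 (0.082) or MitoPark 3 (0.003).

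Bche encodes butyrylcholinesterase, which splits a wider range of choline esters. The controls were at 8.58, 9.59 and 16.5 CPM, and the MitoParks at 8.53, 8.90 and 9.98 CPM. A single mouse, littermate control 3, stood above the other 5, which lay within 8.53 to 9.98 CPM. Bche had a log2 fold change of -0.34 (standard error 0.25, unadjusted p = 0.206, edgeR) with all mice and 0.007 without littermate control 3. Littermate control 3 also had the highest Th (159 CPM, against 39 to 65.5 CPM in the others), and the part of its tissue makeup in the Bche value was not tested.

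**Figure D2:**
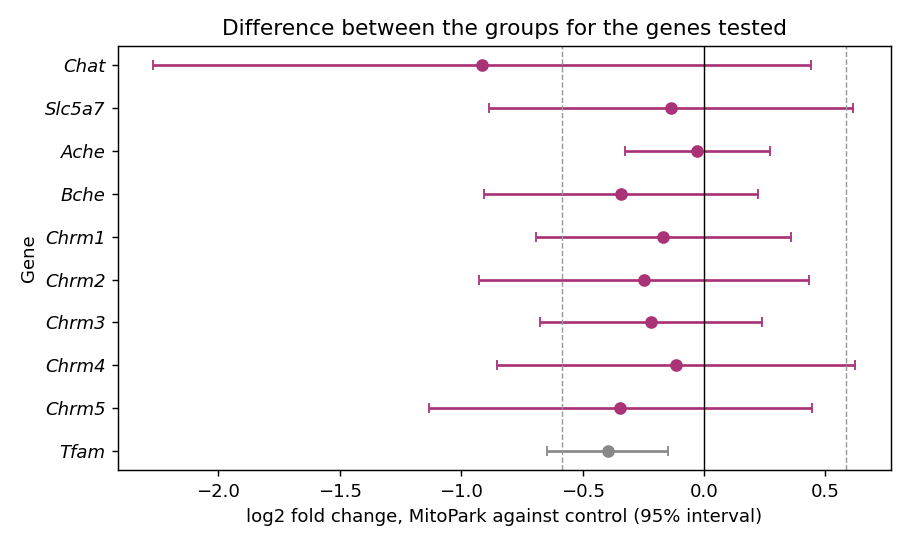
Log2 fold change of MitoParks against littermate controls (x axis) for the 9 genes tested and for Tfam (grey), with 95% intervals from edgeR's quasi-likelihood fit. Dashed lines mark 1.5-fold in either direction. The interval of each of the 9 genes includes 0, and the interval of Ache alone lies between the dashed lines.

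Among the receptors coupled to Gq, Chrm3 had the most counts. Levels of Chrm3 were 27.6, 30.1 and 26.3 CPM among controls, and 22.8, 32.0 and 17.2 CPM among MitoParks. The controls lay close together, while the MitoParks ran from below every control to above every control. Chrm3 had a log2 fold change of -0.22 (standard error 0.20, unadjusted p = 0.309, edgeR), with a 95% interval from 0.627- to 1.18-fold. Without MitoPark 2, the mouse with the highest level, it was -0.48 (unadjusted p = 0.0185), which is under the 1.5-fold cutoff, and without MitoPark 3 it was -0.03.

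Chrm1, which encodes the main muscarinic receptor of cortical and striatal projection neurons, gave 21.5, 19.7 and 11.3 CPM for the controls, against 16.3, 12.9 and 17.5 CPM for the MitoParks. Littermate control 3 was the lowest of all 6 mice and the other controls were the highest. Chrm1 had a log2 fold change of -0.17 (standard error 0.23, unadjusted p = 0.491, edgeR). Without littermate control 3 it was -0.40 (unadjusted p = 0.0437, under the 1.5-fold cutoff), and without littermate control 1 it was 0.01. Of 10 markers of striatal projection neurons 0 passed the cutoffs, where 0.577% of all genes tested did. Their summed level was 310.4 CPM in littermate control 3 and 371 to 468 CPM in the others. These markers did not move together, as Penk and Tac1 were lowest in littermate control 3 and Drd2 was highest there (28.2 CPM, against 12.8 to 15.6 CPM). Their part in the Chrm1 values was not tested.

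Chrm5 encodes the receptor found in dopaminergic neurons, and its coefficient of variation in controls was among the lowest of the group. The controls were at 7.57, 6.84 and 7.53 CPM, a coefficient of variation of 5.62%. MitoParks 1 and 2 were at 7.68 and 7.08 CPM, within or just above the range of the controls, and MitoPark 3 was at 2.49 CPM, from 22 counts. Chrm5 had a log2 fold change of -0.35 (standard error 0.35, unadjusted p = 0.350, edgeR), with a 95% interval from -1.13 to 0.44, and it was 0.012 without MitoPark 3. For Slc6a3, which encodes the dopamine transporter, controls gave 72.6, 65.3 and 383.4 CPM, against 13.3, 51.1 and 40.9 CPM for MitoParks. The high value in littermate control 3 and the low value in MitoPark 1 therefore had no counterpart in Chrm5. All MitoParks carried Cre at 1 copy of Slc6a3, and the part of that allele in the Slc6a3 values was not tested.

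Of the receptors coupled to Gi, Chrm2, an autoreceptor of cholinergic terminals, gave 11.1, 8.07 and 6.84 CPM for the controls, and 6.83, 10.3 and 4.65 CPM for the MitoParks. The groups overlapped over most of their range. Its log2 fold change was -0.25 (standard error 0.30, unadjusted p = 0.433, edgeR), with a 95% interval from 0.526- to 1.35-fold, and it was -0.59 without MitoPark 2 (unadjusted p = 0.0813) and -0.009 without MitoPark 3. Chrm4, the Gi-coupled receptor best known from the striatum, gave 6.01, 3.70 and 4.30 CPM for the controls, against 4.998, 2.53 and 5.44 CPM for the MitoParks, and the groups overlapped here too. Its log2 fold change was -0.12 (standard error 0.33, unadjusted p = 0.734, edgeR), and the sign turned without littermate control 1 (0.11) or MitoPark 2 (0.17).

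MitoPark 3 had the lowest Chrm2, Chrm3 and Chrm5 of all 6 mice, and MitoPark 2 the lowest Chat, Ache and Chrm4. No member was lowest in littermate control 1 or 2. In MitoPark 3 the trend of all genes on GC content amounted to -0.043, 0.004 and 0.019 on the log2 scale at the GC content of Chrm2, Chrm3 and Chrm5. After correction for that trend Chrm5 was at 2.46 CPM in this mouse. Leaving out littermate control 3, the library that stood apart, gave log2 fold changes of -1.26 for Chat, -0.36 for Slc5a7, -0.07 for Ache, -0.39 for Chrm2, -0.26 for Chrm3, -0.17 for Chrm4 and -0.32 for Chrm5, none past the cutoffs.

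**Figure D3:**
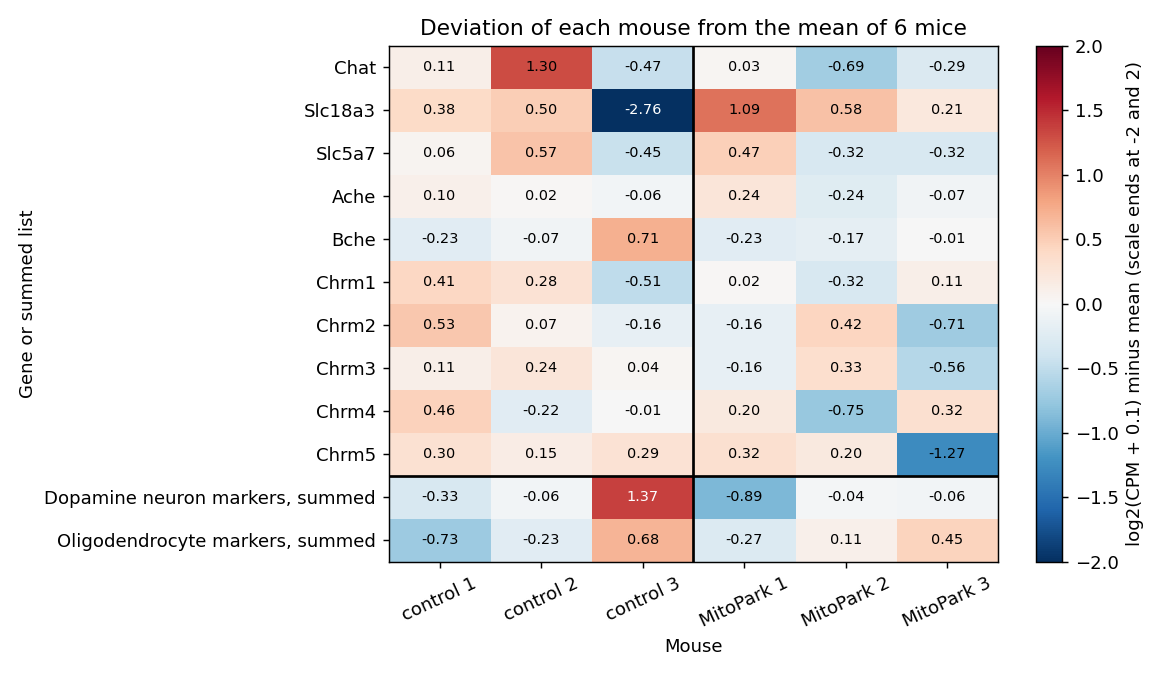
Each cell gives log2(CPM + 0.1) in 1 mouse (columns) minus the mean of the 6 mice, for the 10 genes and for the summed dopaminergic and oligodendrocyte markers (rows), with red above and blue below the mean. Littermate control 3 is at 0.71 for Bche, -0.51 for Chrm1 and 1.37 for the dopaminergic markers, and MitoPark 3 is at -1.27 for Chrm5.

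To compare levels between genes, CPM were divided by the length of the longest protein-coding transcript in kilobases (GENCODE M21). Ache stood far above the rest, at a median over 6 mice of 74.7 CPM per kilobase, and its lowest mouse (64.3) was above the highest mouse of any other member. Chrm3 (median 6.22), Chrm5 (4.57), Chrm4 (3.23), Chrm1 (2.69), Bche (1.49), Chrm2 (1.31) and Slc5a7 (0.834) followed in CPM per kilobase. In that stretch the ranges of neighbours overlapped, but all genes were read in the same mice. Within single mice Chrm3 was above Chrm5 every time, while each other neighbouring pair in that stretch changed order in some mouse. Slc18a3 (0.339) and Chat (0.227) were lowest in CPM per kilobase, also with overlapping ranges, and every mouse was lower for Slc18a3 than the lowest mouse for Slc5a7. In CPM per kilobase of the longest transcript, Ache, Chrm3, Chrm5, Chrm4 and Chrm1 were each higher in their lowest mouse than Slc5a7, Slc18a3 and Chat in their highest. This separation and the place of Chat rest on the length used. With the median length of its protein-coding transcripts, Slc5a7 had a median of 1.57 CPM per kilobase, above the lowest mouse of Chrm5 (1.56). For Chat, with the median length of its protein-coding transcripts in place of the longest its median was 1.48 CPM per kilobase, above the medians of Chrm2 and Slc18a3.

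**Figure D4:**
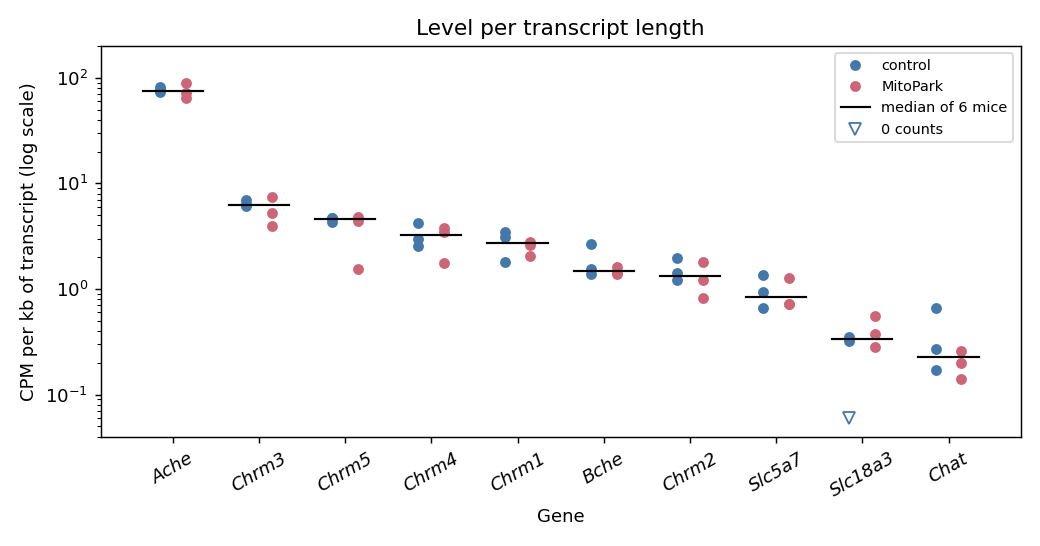
CPM per kilobase of the longest protein-coding transcript (y axis, log scale) for each mouse, with genes ordered by the median of 6 mice (black line). The open triangle is littermate control 3 for Slc18a3, which had 0 counts. Ache lies above all other members, and Slc18a3 and Chat lie below 1 in all mice.

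The receptor genes are paralogs, so reads could in principle be shared among them. Over the transcripts of GENCODE M21, words of 50 bases were not shared on the same strand with any other gene for 9 of the 10 members, and for Chat 0.222% of the words were. On the opposite strand 4.32% of the words of Chrm1 and 1.51% of those of Chrm2 matched a transcript of another gene. Neither the receptors nor Chat and Slc18a3 shared words with each other.

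Other genes of the system did not pass the cutoffs either, where 0.577% of all genes tested did. In lists this short, a count of 0 is near that share. Of 12 regulators and markers of cholinergic neurons, 7 were tested, 0 were called in either direction, and their median log2 fold change was -0.04, where the median of all genes tested was -0.005. Isl1, a LIM homeodomain factor of cholinergic and other neurons, gave 30.5, 19.9 and 4.11 CPM for the controls, against 29.1, 14.96 and 19.5 CPM for the MitoParks. Its lowest mouse was littermate control 3. Nkx2-1 (19.2 CPM) and Ngfr (4.69 CPM) were lowest in that mouse too. Slc10a4, a vesicular protein of cholinergic and monoaminergic neurons, was highest there, at 49.3 CPM against 7.92 to 15.4 CPM in the other 5 mice. Gbx2 was also highest there, at 2.54 CPM. Nos1, which encodes neuronal nitric oxide synthase and is found in cholinergic neurons of the pedunculopontine nucleus, and Nkx2-1 were the genes of this list with the most counts. Nos1 was at 38.2 ± 6.93 CPM in controls and 29.0 ± 6.83 CPM in MitoParks (SD, n = 3 each; log2 fold change -0.40, unadjusted p = 0.0661, edgeR). Nkx2-1, a factor of the ventral forebrain, was at 26.8 ± 6.91 and 26.2 ± 2.25 CPM (SD, n = 3 each). Mnx1, which marks motor neurons, had no counts in any mouse, and Lhx8, a factor of forebrain cholinergic neurons, was at 0.488 CPM or less. Of the 6 markers of cranial motor neurons, led in counts by Isl1 and Prph, 3 were tested and 0 were called, and their sum ran from 19.9 CPM in littermate control 3 to 49.0 CPM in MitoPark 1.

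For choline supply and the anchors of acetylcholinesterase, 6 of 9 genes were tested, 0 were called, and the median log2 fold change was 0.01. Colq, an anchor under the filter, gave 6, 0 and 4 counts in controls and 7, 9 and 10 in MitoParks. Every MitoPark was thus above every control in CPM, as for 2.43% of all genes tested. The groups overlapped for the other untested genes of this list. Slc44a1, a choline transporter of many cell types, was at 91.9 ± 36.9 CPM in controls and 99.2 ± 9.22 CPM in MitoParks (SD, n = 3 each). Chka, which encodes choline kinase alpha, was at 47.9 ± 7.28 and 55.5 ± 6.50 CPM (SD, n = 3 each). Of 24 genes of muscarinic signalling, all tested, 0 were called. Of these, 7 were above and 17 below 0, where 51.4% of all genes tested were below. Their median log2 fold change was -0.05. Every MitoPark was below every control for 2 of them, including Gnao1, and above every control for 1, where 2.28% and 2.43% of all genes were. Gnao1, the Go alpha subunit, was at 612 ± 28.0 and 576 ± 13.0 CPM and Arrb1, an arrestin, at 328 ± 9.77 and 323 ± 27.2 CPM in controls and MitoParks (SD, n = 3 each).

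For each tested member, the genes with the most similar levels over the 6 mice were found by Pearson's r of log2(CPM + 0.1) among all genes tested. They were Oaz1 and Gm561 for Chat, Barx2 and Nelfcd for Slc5a7, Sco2 and Jph2 for Ache, Atg7 and Atp2a3 for Bche, Nelfb and Prr3 for Chrm1, Kpna4 and Wac for Chrm2, Sec23a and Slc33a1 for Chrm3, 4930538K18Rik and Zbtb39 for Chrm4, and Ubald2 and Pi4ka for Chrm5. The r values ran from 0.979 to 0.999. With 6 mice and 14568 genes to choose from, such values are a description of these libraries, and the points share depth and tissue makeup.

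Markers of the other cells that the dissection could hold were counted in the same way. None of the markers of striatal projection neurons (10 tested, led by Penk and Tac1), cortical and hippocampal glutamatergic neurons (5 of 6 tested, led by Slc17a7 and Neurod2), oligodendrocytes (6 tested), astrocytes (6, led by Slc1a2 and Slc1a3), microglia (6 tested) or choroid plexus (4 of 6 tested, led by Ttr and Clic6) passed the cutoffs or had an unadjusted p below 0.05. Of all genes tested, 0.577% passed the cutoffs and 1.11% had such a p (edgeR), so counts of 0 are near these shares. The summed levels ran from 29.0 to 65.3 CPM for the glutamatergic markers, 3017 to 3842 CPM for astrocytes, 224 to 302 CPM for microglia and 20.8 to 182 CPM for choroid plexus. Their part in the levels of the cholinergic genes was not tested.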

How the data were processed

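Poly(A) RNA of 3 MitoParks and 3 littermate controls was sequenced. The authors mapped reads to the UCSC transcript set with Bowtie2 2.1.0 and deposited RSEM 1.2.15 expected counts without normalization (tools per the labels too). A human build stands among the submitters' notes for these mouse samples, and no mouse build is given for this mapping in the sources used here. A further part of the methods names HISAT2 and a RefSeq annotation, without saying for which libraries. The column names of the MitoParks (Treat) were matched to the samples by number.

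Expected counts were rounded. The filter asked for a group mean of more than 1 CPM in either group and left 14568 of 24054 genes, which were normalized by TMM and fitted with edgeR 4.0.16 (R 4.3.3) by the quasi-likelihood test with the group as the only term, and p-values were adjusted by the Benjamini-Hochberg method over all genes tested. Intervals of 95% came from the same fit. For edgeR the study's methods give p below 0.05 and 1.5-fold as cutoffs, and a further part gives a p adjusted by the Benjamini-Hochberg method, so both were counted. With 3 mice a group, the smallest two-sided p of an exact permutation test is 0.1, and none of the 10 genes reached it. Libraries of the same group differed by more than sampling noise, with a chi-square of at least 8.38 for each degree of freedom. The p-values measure only the spread between these libraries.

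The members and lists were chosen with earlier results of these data known. Named beside the members were list genes that had an unadjusted p below 0.05 or, where a list had none, its 2 genes with the most counts, and the 2 genes most similar to each member. Mnx1, Lhx8, Slc10a4, Gbx2, Ngfr, Colq, Drd2, Th and Xist were named after their values were seen. Not every gene that the rule names is reported here. The procedure was tested on simulated data, and no result given here rests on that test. Alternatives were DESeq2 1.42.0, limma-voom 3.58.1, 2 other normalizations, 2 other filters, unrounded counts, a replicate block and each mouse left out. GC correction (lowess, span 0.3) was added after the data were seen.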

Additional observations from a re-analysis of the deposited data

How the results depend on the processing

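The number of members past the cutoffs was 0 under all 10 alternatives with all mice and in all 6 fits without 1 mouse, in either direction. The number of genes past the cutoffs was 84, and it moved to 176 without the filter on low counts and to 130 with the GC correction and replicate block together. It ranged from 62 to 219 with each mouse left out, and was 133 without littermate control 1, 219 without littermate control 3 and 217 without MitoPark 2. The cause was not tested. Leaving out 1 mouse gave log2 fold changes from -0.161 to 0.082 for Ache, -0.51 to 0.0074 for Bche, -0.40 to 0.010 for Chrm1, -0.59 to -0.0093 for Chrm2, -0.48 to -0.028 for Chrm3, -0.321 to 0.171 for Chrm4, -0.588 to 0.012 for Chrm5 and -0.442 to 0.170 for Slc5a7. With the replicate number as a block, 126 genes and 0 members were past the cutoffs. Over 14568 genes, the deviations of same-numbered mice correlated at r = 0.307 for number 1, -0.0738 for number 2 and 0.244 for number 3. Between mice of different numbers r ran from -0.391 to 0.149. The block rests on a shared number only. Scaling by the median in place of the longest transcript length moved Chat to 1.48 and Ache to 385 CPM per kilobase; the median lengths are 438 and 423.5 bases and the longest 2858 and 2186. Chat and Slc18a3 were at 20 counts or fewer per mouse, and what could be detected at such counts was not tested.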
